A study of Solanum lycopersicum with 36 samples.

Results

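The genes described here are 150 tomato genes whose root transcripts barely answered nitrogen (N) in wild type (WT) but rose under N in both *sdg33* and *sdg34*. They were chosen from the root values themselves. The N response of a gene was taken as the mean of log2(value + 1) under +N minus the mean under -N, within a genotype. Of the 35872 identifiers in the tables (35768 gene models and 104 miRNA loci), 16250 had a mean of at least 50 over the 18 root libraries, and 11161 of these had a WT N response smaller than 0.5 in either direction. From these 11161 candidates the 150 genes with the largest value of the smaller of the 2 mutant responses were kept. Root N responses, and root levels of the mutants against WT, are therefore descriptions without tests, whereas the 18 shoot libraries were not used in the choice and were tested.

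The series holds 36 RNA-Seq libraries in 12 groups, from roots and shoots of WT (cultivar Castlemart II) and the CRISPR mutants *sdg33* and *sdg34* in that background, under +N and -N. Each group had 3 libraries, each made from a pool of 3 plants, and each mutant was represented by 1 line (*sdg33.1* and *sdg34.1*). All plants were grown hydroponically and starved of N for 2 days. They then received, for 5 h, medium with 1.2 mM KNO3, 0.8 mM Ca(NO3)2 and 0.2 mM NH4H2PO4 (+N) or the same medium with 0 mM of each of these salts (-N).

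SDG33 and SDG34 are SET-domain histone lysine methyltransferases related to Arabidopsis SDG8, an enzyme that methylates histone H3 over transcribed genes. Nitrate is taken up by roots, reduced to nitrite by nitrate reductase and then to ammonium, which is built into amino acids. Nitrate is also a signal, and within hours of its supply roots change the transcript levels of genes of transport, reduction, carbon supply and hormone metabolism. The contrast of N response between mutant and WT asks which of these changes depend on the methyltransferases.

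The deposited values are gene counts that were normalized so that all 36 libraries hold the same sorted values, which sum to 19667069 per library. They are called normalized counts here, and the sequencing depth behind them is unknown. Replicate libraries of a group correlated across genes at 0.990 to 0.995 (Pearson, log scale) in roots and 0.977 to 0.991 in shoots. The summed level of 6 photosystem and light-harvesting genes was 194 to 626 in root libraries and 17855 to 97908 in shoot libraries, as the organ labels say. *SDG33* transcripts (Solyc04g057880.3) remained in *sdg33* roots, at a mean of 413 under -N against 504 in WT, and in *sdg33* shoots, at 176 against 467. *SDG34* transcripts (Solyc06g059960.3) remained in *sdg34* roots, at 116 against 178, and in *sdg34* shoots, at 81.7 against 158. Averaged over both N conditions, the shoot difference from WT was -1.001 for *SDG33* in *sdg33* (limma, adjusted p = 1.5e-06) and -0.56 for *SDG34* in *sdg34* (adjusted p = 0.0039). The drop of *SDG33* was not limited to its own mutant, since *sdg34* shoots differed by -0.49 (adjusted p = 0.0029). For *SDG34*, *sdg33* shoots differed by 0.07 (adjusted p = 0.70). A limma fit of roots gave -0.30 for *SDG33* in *sdg33* (adjusted p = 0.0022) and 0.02 in *sdg34* (adjusted p = 0.82). For *SDG34* in *sdg34* roots it gave -0.44 (adjusted p = 0.026). A transcript level does not show an edited codon, so the mutations themselves were not checked here.

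In roots, the 150 genes had a median N response of 0.13 in WT (from -0.42 to 0.50), 1.36 in *sdg33* (from 0.99 to 4.78) and 1.84 in *sdg34* (from 0.98 to 8.33). The medians over the 11161 candidates were -0.02, -0.04 and -0.03. The response was larger in *sdg34* than in *sdg33* for 129 of the 150 genes, with a median difference of 0.52. It was larger by at least 1 in *sdg34* for 32 genes, whereas 0 genes had such an excess in *sdg33*. A response of 2 or more, that is a 4-fold rise, was reached by 27 genes in *sdg33* and 68 in *sdg34*. Over the 11161 candidates it was reached by 27 and 76 genes, and a response of 1 or more by 185 and 336. Large rises were thus more frequent in *sdg34* over the candidates too. The rule ranks genes by the smaller of the 2 responses, so nothing about the 150 genes is read from the larger *sdg34* values. The last genes inside the list, Solyc12g057040.2 and Solyc01g087010.3, had smaller mutant responses of 0.99 and 0.98, and the first outside it, Solyc09g065540.3 and Solyc02g078480.3, both had 0.98.

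Every +N root library lay above every -N library for 147 of the genes in *sdg33* and 149 in *sdg34*, and for 31 in WT. Among all 20670 genes expressed in roots these shares were 24.9%, 28.6% and 25.7%. A limma fit called the rise of 148 genes in *sdg33* and 150 in *sdg34*, where 20.7% and 25.7% of all genes were called up. Since the rule used these contrasts, nothing is read from these counts. In WT, 17 of the genes were called up and 3 down by the same fit, against 21.8% and 22.1% of all genes, with changes below the limit of 0.5.

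**Figure D1:**
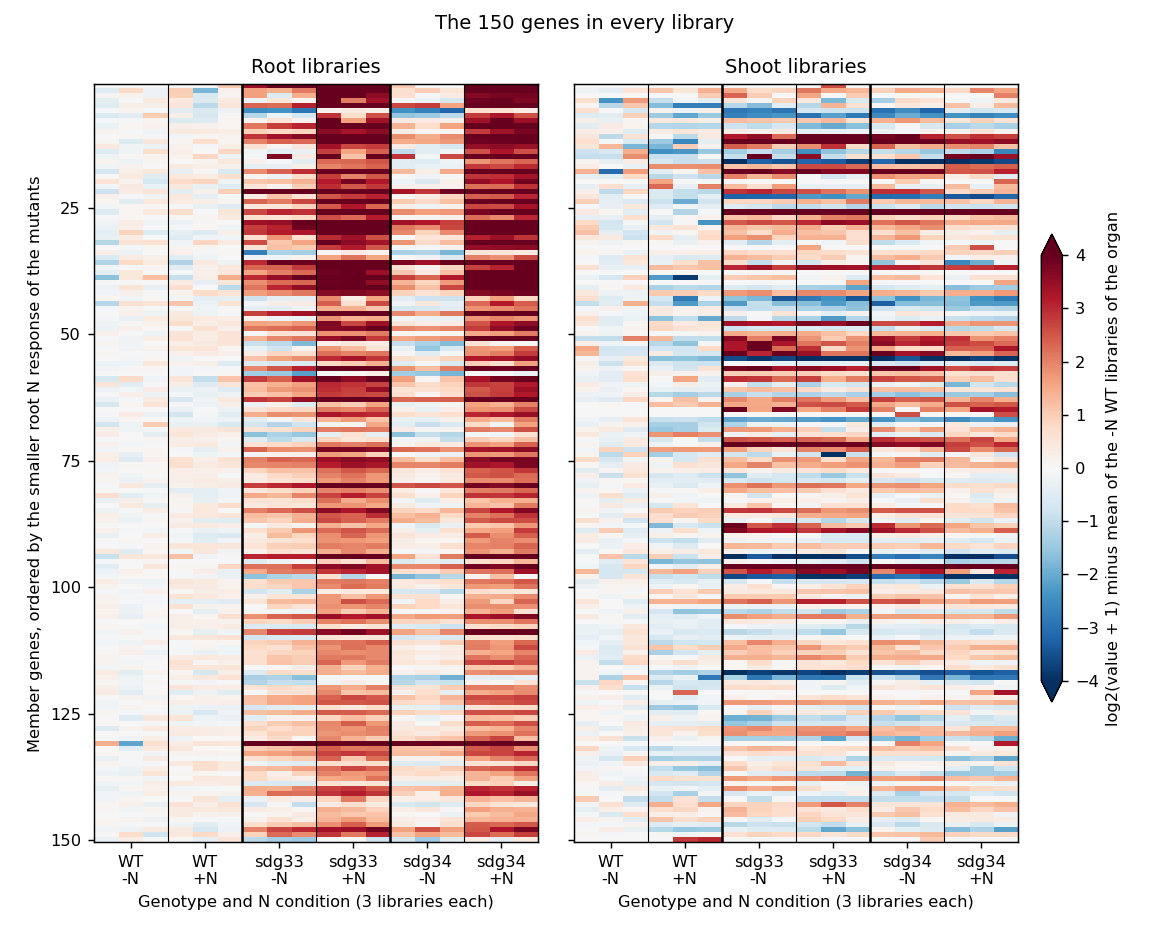
Heat map of the 150 genes (lines, ordered by rank) in the 18 root and 18 shoot libraries (columns, 3 per genotype and N condition). Color is log2(value + 1) minus the mean of the WT -N libraries of the same organ, and the +N root columns of both mutants stand above their -N columns (median responses 1.36 and 1.84) while the shoot columns show no such step (medians -0.12 and -0.35).

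The root levels behind these responses fell into several patterns. The median group mean over the genes was 165 in WT, 284.5 in *sdg33* and 237 in *sdg34* under -N. Under +N the medians were 173.5, 771 and 909.7. The typical gene thus stood above WT in mutant roots under -N, and further above it under +N. The median log2 difference from WT was 0.84 in *sdg33* and 0.35 in *sdg34* under -N, and 2.18 and 2.33 under +N. In bulk samples, more cells of a type and more RNA per cell cannot be told apart.

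With a limit of 0.5 on the mean log2 difference of both mutants from WT, 86 genes (57.3%) were above WT under both conditions, where 6.06% of the candidates were. Another 44 genes (29.3%) were level with WT under -N and above it under +N (7.04% of the candidates), so that 130 were above WT under +N without being below it under -N. The rule takes genes that rise under +N in mutant roots and not in WT. A gene can also reach the mean level through the mutants alone. Shares above WT can thus exceed those of the candidates through the rule. How far they do so was not tested, and nothing is read from that excess. In all, 18 genes were below WT under -N. Of these, 11 (7.33%, against 1.72% of the candidates) were level with WT under +N. A further 6 of the 18 (4%, against 0.0538%) were above it under +N, and 1 (0.667%, against 5.88%) was below it under both. The rule also favours genes that were low in mutant roots under -N, so nothing is read from these shares either. The remaining 2 genes passed no limit. With a limit of 1, 56 genes were above WT under both conditions and 72 under +N only, so the split between these classes depends on the limit.

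**Figure D2:**
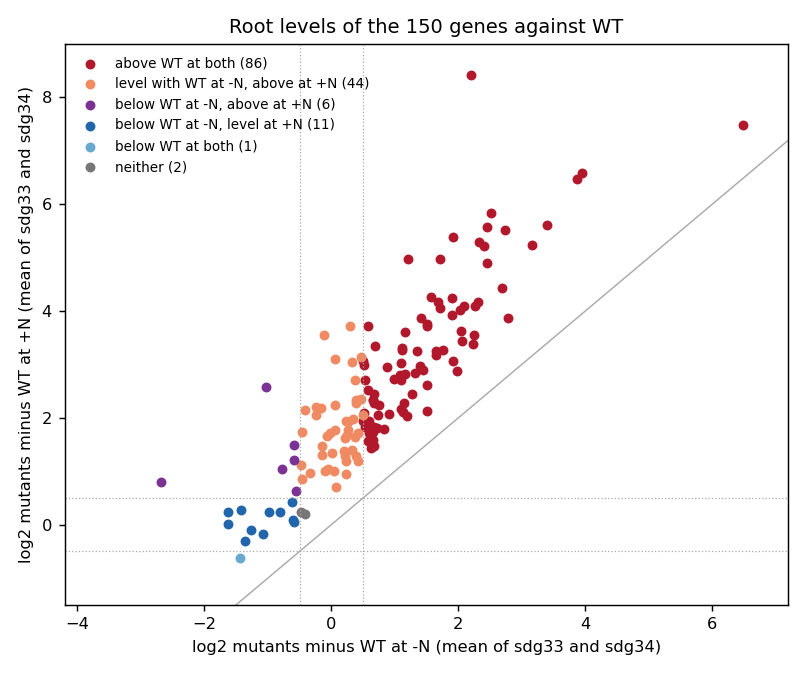
Each point is 1 of the 150 genes, placed by its root log2 difference of the mutants from WT (mean of *sdg33* and *sdg34*) under -N on the x axis and under +N on the y axis. Dotted lines mark differences of 0.5, the grey diagonal marks equal differences, and 130 genes lie above 0.5 under +N without lying below -0.5 under -N.

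A description in words was at hand for 49 of the 150 genes. The descriptions come from supplementary lists of genes picked for a genotype difference in these same libraries. The described genes are thus not a random draw, and their genotype differences are not independent evidence. By keyword, 6 matched transcription factor terms, 4 oxidoreductase, 3 signalling, 2 hormone and 1 cell wall terms, with overlaps. Transporter terms matched 0 genes, and ribosomal, histone or cell cycle terms 0. A match is not a function. The zinc finger term took in a CHY- and RING-type gene, and the 1-aminocyclopropane-1-carboxylate synthase and beta-1,4-xylosidase genes named below matched no term. The families were not counted over the 404 described candidates, so nothing is read from these counts. The other 35 fell in no family, and the genes named from among them were chosen after their values were seen.

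The most abundant member was a nitrate reductase gene, Solyc11g013810.2, whose product reduces nitrate to nitrite. In WT roots it had normalized counts of 30399, 35396 and 30993 under -N and 24078, 21600 and 27322 under +N. In *sdg33* roots it had 5704, 6008 and 4322 under -N and 36556, 40978 and 37498 under +N. In *sdg34* roots it had 5996, 4962 and 3602 under -N and 51448, 48874 and 39889 under +N. Both mutants were thus far below every WT library under -N and above every WT +N library under +N. Its root N response was -0.41 in WT, 2.86 in *sdg33* and 3.29 in *sdg34*, and its log2 difference from WT under -N was -2.60 in *sdg33* and -2.76 in *sdg34*.

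The other genes below WT under -N included a class I small heat shock protein gene, Solyc06g076570.3, a chaperone that holds unfolding proteins. Its -N means were 443 in WT, 178 in *sdg33* and 158 in *sdg34*, while the +N means were 402, 447 and 642. A calmodulin-binding protein gene, Solyc01g005800.3, had 163, 115 and 102 under -N and 132, 430.0 and 365 under +N. A chitinase gene, Solyc04g072000.3, which encodes an enzyme that cuts the fungal wall polymer chitin, had 2380.0, 1468 and 1866 under -N and 2698, 3761 and 4715 under +N. For all 3 genes the mutant roots crossed from below WT to level with it or above it.

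The 1-aminocyclopropane-1-carboxylate synthase 3 gene Solyc02g091990.3, of the enzyme that makes the ethylene precursor, belonged to the same class. Its libraries read 52, 48 and 60 under -N and 74, 74 and 58 under +N in WT. They read 43, 30 and 57 against 179, 128 and 78 in *sdg33*, and 44, 17 and 34 against 181, 172 and 291 in *sdg34*. Under -N the *sdg33* libraries overlapped with WT and the *sdg34* libraries lay below it, and under +N both mutants lay above WT without overlap.

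The gene with the largest value of the rule, Solyc07g054750.1, has no description and was close to 0 in WT roots, at 0, 0 and 0 under -N and 0, 0 and 1 under +N. It reached 440, 691 and 314 in *sdg33* and 416, 254 and 624 in *sdg34* under +N, from 10, 16 and 24 and from 1, 0 and 0 under -N. In shoots it was at 0 in 17 of 18 libraries, so its root signal had no shoot counterpart. Solyc03g114360.3 (rank 9, no description) went from 685, 1090 and 1318 to 6656, 7530 and 5409 in *sdg33* roots and from 403, 250 and 479 to 8608, 7927 and 9464 in *sdg34* roots. WT roots stayed between 132 and 186 in all 6 libraries, so no mutant library overlapped with them.

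The 2 genes found by the hormone keywords encode enzymes that inactivate or degrade hormones. The gibberellin 2-oxidase 4 gene Solyc07g061720.3, of an enzyme family that inactivates gibberellins, read 206, 142 and 262 under -N and 248, 232 and 212 under +N in WT roots. It read 995, 834 and 1252 against 4488, 5102 and 3610 in *sdg33*, and 407, 333 and 456 against 3068, 4132 and 4859 in *sdg34*. All mutant libraries lay above all WT libraries. The cytokinin oxidase2 gene Solyc01g088160.3, of an enzyme that degrades cytokinins, had root means below 15 in WT under both conditions. Its N response was 1.93 in *sdg33* and 3.20 in *sdg34*. A two-component response regulator gene, Solyc10g079600.2, from the family of proteins that receive phosphate in relays such as cytokinin signalling, had responses of -0.06 in WT, 1.71 in *sdg33* and 1.34 in *sdg34*, and was one of the 21 genes with the smaller response in *sdg34*.

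Signalling and sugar genes followed. A protein phosphatase 2C gene, Solyc06g076400.3, from a family that includes negative regulators of abscisic acid signalling, had root means of 18.3 under both conditions in WT. It went from 151 to 488 in *sdg33* and from 75 to 852 in *sdg34*, as group means. A serine/threonine protein kinase gene, Solyc06g068450.2, had responses of -0.06, 1.03 and 1.75 in WT, *sdg33* and *sdg34*. The trehalose-6-phosphate synthase 1 gene Solyc07g006500.3 makes the phosphate sugar that reports sucrose supply in plants. It had responses of 0.47, 1.65 and 2.76. A beta-amylase gene, Solyc08g077530.3, of an enzyme that releases maltose from starch, had 0.01, 2.14 and 2.22.

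The 6 genes found by the transcription factor keywords lay above WT in mutant roots under both conditions, as 57.3% of the 150 genes did. They were a bZIP gene (Solyc01g100460.3), a CHY- and RING-type zinc finger gene (Solyc06g054540.3), a GATA gene (Solyc01g090760.3), a PHD finger gene (Solyc06g082040.2), a homeobox gene named after Arabidopsis LUMINIDEPENDENS, a flowering time regulator (Solyc09g074700.2), and a myb-like gene (Solyc07g026675.1). Their root responses ranged from 0.99 to 1.47 in *sdg33* and from 1.24 to 3.20 in *sdg34*. The PHD finger gene had the largest difference between the mutants, with 1.18 in *sdg33* and 3.20 in *sdg34*. A transcription factor gene that the keywords missed encodes a dehydration responsive element binding protein. This gene, Solyc05g052410.2, whose Arabidopsis relatives act in drought and cold responses, was level with WT under -N (means of 51.3 in WT, 48.3 in *sdg33* and 39.0 in *sdg34*) and above it under +N (58.0, 265 and 222).

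Some described genes belong to families of protein folding and turnover, and they were named after their values were seen. The DNAj chaperone gene Solyc07g065970.1 belongs to the co-chaperones of heat shock proteins. It read 35, 79 and 91 under -N and 47, 72 and 124 under +N in WT roots. It read 1031, 1380 and 2298 against 6704, 7280 and 6098 in *sdg33*, and 635, 470 and 960 against 7280, 6880 and 10028 in *sdg34*. Its lowest mutant library was thus well above its highest WT library. The DnaJ genes Solyc04g081530.1 and Solyc10g086570.3 had responses of 2.57 and 1.86 in *sdg33* and 2.77 and 2.75 in *sdg34*. A RING/U-box gene, Solyc10g008400.1, and an F-box gene, Solyc02g092290.3, both from families of ubiquitin ligase components, had 2.61 and 1.65 in *sdg33* and 4.11 and 3.34 in *sdg34*.

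Genes of wall enzymes, of N metabolism and of defence were also present. The beta-1,4-xylosidase genes Solyc01g107090.2 and Solyc01g107100.3, of enzymes that release xylose from wall polymers, had responses of 2.23 and 1.48 in *sdg33* and 3.73 and 2.38 in *sdg34*. A 1,4-beta-D-glucanase gene, Solyc11g027840.2, had 1.63 in *sdg33* and 1.60 in *sdg34*. The aspartate aminotransferase genes Solyc10g075170.2 and Solyc10g075175.1, which move amino groups between aspartate and glutamate, had 1.85 and 1.82 in *sdg33* and 3.44 and 3.18 in *sdg34*. They are neighbours with like values in every root library, so reads may have been split between them and their separate levels are uncertain. An NBS-LRR gene, Solyc06g064750.1, from the family of intracellular immune receptors, had -0.42 in WT, 1.41 in *sdg33* and 2.63 in *sdg34*. A glutaminase domain protein gene, Solyc03g006490.3, rose from a mean of 687 to 2832 in *sdg33* roots and from 318 to 1898 in *sdg34* roots, with 96.0 and 125 in WT.

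Several members were neighbours in the genome. By the order of the identifiers, 15 of the genes formed 8 adjacent pairs. No such count is given for the candidates, so whether 8 pairs are many is not known. The 3 Cysteine/Histidine-rich C1 domain genes Solyc01g073810.2, Solyc01g073820.3 and Solyc01g073830.1 stood in a row, with root responses of 1.42, 1.22 and 1.51 in *sdg33* and 2.03, 1.65 and 2.36 in *sdg34*. Both xylosidase genes, both aspartate aminotransferase genes and the DNAj gene Solyc07g065970.1 with its undescribed neighbour Solyc07g065960.1 were other such pairs. Genes of 1 pair are not independent of each other where they share sequence. By the identifiers, 27 genes (18%) were on chromosome 1, which holds 12.8% of the candidates, and 16 genes (10.7%) on chromosome 10, which holds 6.32%. These 2 had the largest excess, and adjacent members lie on both. Other chromosomes held fewer than their share, for example chromosome 11 with 5 genes (3.33%, against 7.03%) and chromosome 5 with 6 (4%, against 6.71%). No test was run, so nothing is read from these shares.

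The replicates did not vary alike in all groups. Among the 18 root libraries, replicate 3 of *sdg34* +N had the highest of the 3 values in 111 of the 150 genes, and replicate 1 of *sdg33* -N the lowest in 103. Replicate 2 of *sdg33* +N was at least 2-fold below both other replicates in 9 genes, among them the heat shock protein, the calmodulin-binding protein and the bZIP gene. The glutathione S-transferase gene Solyc01g081250.3, of an enzyme that couples glutathione to toxic compounds, varied most plainly. It read 52, 712 and 68 under -N and 2544, 121 and 1444 under +N in *sdg33* roots, and 404, 52 and 346 against 1562, 4986 and 1246 in *sdg34* roots. Its *sdg33* libraries overlapped between the N conditions, so its membership rests on uneven replicates. With the rule applied again after leaving out replicate 3 of *sdg34* +N, replicate 1 of *sdg33* -N or replicate 2 of *sdg33* +N, 143, 137 and 136 of the 150 genes remained.

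In shoots, 135 of the 150 genes reached 10 in 3 or more libraries and were tested, and 15 were too low. Only 105 had at least 10 in every shoot library. The mean over the 18 shoot libraries was under 10 for 21 genes and at least 50 for 106. Shoot levels were thus spread widely, and 63 of the genes had a higher mean in WT shoots than in WT roots. The median log2 difference between shoot and root was -0.34 in WT, -1.61 in *sdg33* and -1.68 in *sdg34*, and over the candidates it was -0.32, -0.27 and -0.27. The rule takes genes that were high in mutant roots under +N, so nothing is read from the lower mutant values.

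The rise under N seen in mutant roots was not general in mutant shoots. In *sdg33* shoots, N raised 20 of the 135 genes and lowered 20 (14.8% each; limma, Benjamini-Hochberg adjusted p under 0.05), against 12.7% and 13.8% of the 21031 genes tested. In *sdg34* shoots, N raised 11 (8.15%) and lowered 33 (24.4%), against 11.1% and 11.0%. In WT shoots, N raised 17 (12.6%) and lowered 36 (26.7%), against 15.0% and 15.4%. The median shoot N response was -0.22 in WT, -0.12 in *sdg33* and -0.35 in *sdg34*, where the medians over all genes were -0.04, -0.05 and -0.04.

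**Figure D3:**
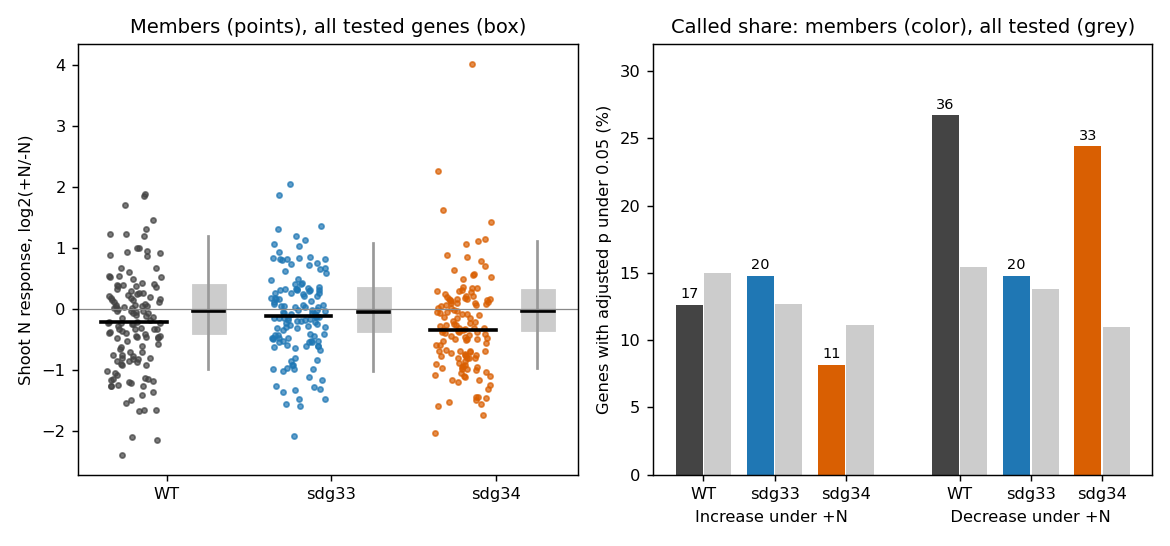
Left, shoot N response, log2(+N/-N), of the 135 tested genes (points, with the median as a black line) and of all 21031 tested genes (grey box for the quartiles, line from the 5th to the 95th percentile, black median) in WT, *sdg33* and *sdg34*. Right, the percent of genes with an adjusted p under 0.05 that rose or fell under +N, for the 135 tested genes (colored, with their number) and all tested genes (grey): falls took 26.7% of the genes in WT and 24.4% in *sdg34*.

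The shares among the 105 genes with at least 10 in every library were close to these, with 18.1% up and 17.1% down in *sdg33* and 9.52% up and 28.6% down in *sdg34*. Over all genes that passed that filter the shares were 15.4% and 17.1% in *sdg33* and 13.4% and 13.9% in *sdg34*. In WT they were 16.2% up and 27.6% down, against 18% and 19.2%. Every +N library lay below every -N library for 36 of the 135 genes in WT (26.7%), 36 in *sdg33* (26.7%) and 58 in *sdg34* (43.0%), where 19.7%, 24.5% and 23.2% of all genes did so. The opposite order, with all +N libraries on top, held for 18 (13.3%), 30 (22.2%) and 17 (12.6%), against 17.1%, 19.7% and 20.3% of all genes.

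No N response was called in any genotype for 48 genes (35.6%), against 53.8% of all genes. N raised 7 genes (5.19%) in all 3 genotypes and lowered 6 (4.44%), against 6.66% and 3.71%. In both mutants N raised 10 genes (7.41%) and lowered 11 (8.15%), against 8.4% and 7.25%. These shared calls were thus near the background. Of the 10 genes, 3 were not called up in WT (2.22%, against 1.75%), namely the nitrate reductase gene Solyc11g013810.2, Solyc04g076880.3 and Solyc12g013840.2, the last named after its values were seen. Of the 11 lowered genes, 5 were not called down in WT (3.70%, against 3.53%).

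The nitrate reductase gene rose under N in shoots of both mutants, from a level below WT, but under +N it stayed below WT there, whereas in roots it passed it. Its WT shoot libraries read 48874, 31735 and 19773 under -N and 35396, 27322 and 35724 under +N. The *sdg33* libraries read 4290, 4780 and 4156 under -N and 19322, 17744 and 17510 under +N, and the *sdg34* libraries 3916, 5608 and 3428 against 22653, 18016 and 20076. Both mutants were below all WT libraries under -N and again under +N, and their +N libraries lay above their -N libraries without overlap. Its shoot N response was 0.06 in WT (adjusted p = 0.88), 2.05 in *sdg33* (adjusted p = 2.6e-06) and 2.26 in *sdg34* (adjusted p = 1.2e-06), each with an SE of 0.23. The difference from WT in N response was 1.99 in *sdg33* (adjusted p = 0.0016) and 2.20 in *sdg34* (adjusted p = 0.0005), each with an SE of 0.32, and neither call was lost in the 25 alternatives run for each. The mean difference from WT over both N conditions was -1.84 in *sdg33* and -1.79 in *sdg34* (SE 0.16 each, adjusted p = 1e-08 and 2e-08).

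Undescribed Solyc04g076880.3, among the 4 most abundant members in roots, rose by 0.42 (adjusted p = 0.0082) in *sdg33* and 0.56 (adjusted p = 0.0011) in *sdg34* shoots, with -0.06 in WT. Its libraries read 2270, 2750 and 2246 under -N and 3204, 3090 and 3379 under +N in *sdg33*, and 2188, 1948 and 2238 against 3437, 2730 and 3279 in *sdg34*. The N conditions did not overlap in either mutant, while the WT libraries, 2339, 2102 and 1966 against 2068, 1942 and 2144, did. Another abundant gene, Solyc01g080280.3, rose in shoots of all 3 genotypes, by 0.87, 0.72 and 0.78. The response regulator gene Solyc10g079600.2 likewise rose by 1.71 in WT, 1.07 in *sdg33* and 1.43 in *sdg34*, although the *sdg33* call (adjusted p = 0.047) was lost under 17 of its alternatives.

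**Figure D4:**
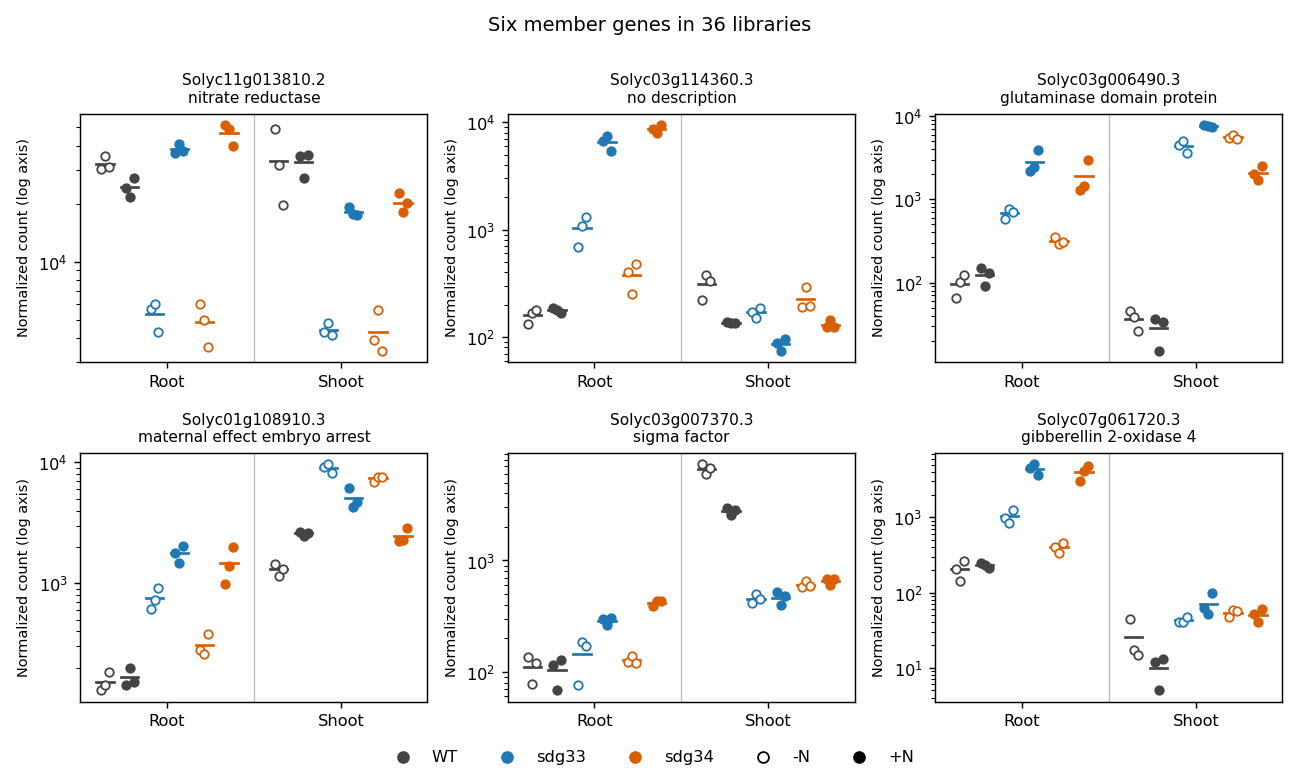
Normalized counts (log axis) of 6 of the 150 genes in all 36 libraries, roots on the left and shoots on the right of each panel, open points for -N and filled points for +N, with the group mean as a line. Nitrate reductase rose under +N in both organs of both mutants, while the 5 others had root rises with no common direction in shoots, for example a shoot N response of -0.85 in *sdg33* and -1.59 in *sdg34* for Solyc01g108910.3.

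The difference in N response between mutant and WT, which is the contrast in which these genes are extreme in roots, was also tested in shoots. In *sdg33*, 11 genes (8.15%) had a larger shoot response than WT and 5 (3.70%) a smaller one, against 1.51% and 2.91% of all genes. In *sdg34*, 7 (5.19%) had a larger and 11 (8.15%) a smaller one, against 2.68% and 4.15%. The first of these counts was 4 in a fit of the 12 WT and *sdg33* libraries and 5 without replicate 3 of *sdg33* +N, and the last was 22 without replicate 3 of WT -N. Both comparisons use the same WT libraries. The WT -N shoot libraries had the widest spread over these genes, with a median SD (log2 values) of 0.39, where the other shoot groups had 0.20 to 0.28.

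Among the genes called in both mutants, the sigma factor gene Solyc03g007370.3, from a family that guides the plastid RNA polymerase to promoters, fell under N in WT shoots. Its WT libraries read 7334, 5952 and 6719 under -N and 2936, 2538 and 2840 under +N. The *sdg33* libraries stayed between 398 and 518 and the *sdg34* libraries between 582 and 688, so both mutants lay below WT in every library. The N response was -1.26 in WT, 0.03 in *sdg33* and 0.12 in *sdg34*, and its difference from WT was 1.30 in *sdg33* (adjusted p = 0.00018) and 1.39 in *sdg34* (adjusted p = 6.9e-05), each with an SE of 0.17. Undescribed Solyc07g063940.2 had a like shape, with N responses of -1.16, -0.06 and -0.03. For both genes the positive difference from WT came with a WT response below 0 and mutant responses near 0, not with a rise in the mutants.

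The maternal effect embryo arrest gene Solyc01g108910.3 had the smallest adjusted p of this contrast among the 135 genes in both mutants and went the other way. In WT shoots it read 1435, 1154 and 1318 under -N and 2682, 2472 and 2592 under +N. In *sdg33* it read 9211, 9676 and 8168 against 6131, 4310 and 4710, and in *sdg34* 6895, 7626 and 7632 against 2234, 2272 and 2874. N thus raised it in WT and lowered it in both mutants, with no overlap between N conditions in any genotype. The N responses were 0.99, -0.85 and -1.59, and the differences from WT were -1.84 for *sdg33* (adjusted p = 8.5e-06) and -2.59 for *sdg34* (adjusted p = 8.3e-08), each with an SE of 0.18. In roots of the same mutants its N response was 1.24 and 2.21, a rise that the rule selected for.

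A direct test of the N response of *sdg34* against that of *sdg33* in shoots called 0 genes higher and 1 lower in *sdg34* (0.0143% and 0.0285% of all genes), with 6 and 18 at an unadjusted p under 0.05. The called gene was the glutaminase domain gene Solyc03g006490.3. Its shoot libraries read 4428, 4964 and 3646 under -N and 7838, 7579 and 7370 under +N in *sdg33*, and 5450, 5939 and 5329 against 2029, 1694 and 2503 in *sdg34*. N thus raised it in *sdg33* (0.82, adjusted p = 0.018) and lowered it in *sdg34* (-1.44, adjusted p = 0.0003). The difference was -2.26 (SE 0.35, adjusted p = 0.017), and the call was lost under 6 of its alternatives, all of which left out 1 mutant library and gave differences from -2.28 to -2.12. The rise in *sdg33* was not called without replicate 3 of *sdg33* -N (0.70) or replicate 2 of *sdg33* +N (0.82). In WT shoots the gene had at most 46 in any library.

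Several described genes fell under N in *sdg34* shoots and had no call in *sdg33* shoots. The trehalose-6-phosphate synthase gene Solyc07g006500.3 read 396, 400 and 560 under -N and 180, 220 and 216 under +N in *sdg34*, a response of -1.12 (adjusted p = 0.00063). In WT the response was 0.53 (adjusted p = 0.06), and the difference from WT was -1.65 (adjusted p = 0.0023). The DNAj gene Solyc07g065970.1 fell by 1.75 (adjusted p = 0.00067), the NHL domain gene Solyc12g010430.1 by 1.01 (adjusted p = 0.0006) and the GATA gene Solyc01g090760.3 by 1.31 (adjusted p = 0.023) in *sdg34* shoots. All of these rose under N in *sdg34* roots. In *sdg33* shoots the same 4 genes had responses of 0.41, -0.68, 0.04 and -0.13, none called, and the difference between the mutants was not called for any of them. The GATA call was lost under 5 of 26 alternatives, for example without replicate 1 of *sdg34* -N (-1.11, adjusted p = 0.104).

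Other genes fell under N in shoots of all 3 genotypes. The protein phosphatase 2C gene Solyc06g076400.3 fell by 1.18 in WT, 1.01 in *sdg33* and 0.99 in *sdg34*, with adjusted p from 0.00014 to 0.0012. The myb-like gene Solyc07g026675.1 fell by 1.36, 1.17 and 1.44, and Solyc03g114360.3 fell by 1.15, 0.98 and 0.77. Solyc10g084960.2 fell by 1.03, 2.09 and 1.46 and, averaged over the mutants, had one of the 2 lowest shoot N responses of the 135 genes, but its WT call was lost under 5 of 25 alternatives (-0.64 without replicate 3 of WT -N). The beta-amylase gene Solyc08g077530.3 instead fell by 0.63 in WT and rose by 0.93 in *sdg33*, and its difference from WT was 1.56 (SE 0.27, adjusted p = 0.0028). Its WT fall was not called without replicate 1 of WT -N (-0.40) or replicate 2 of WT +N (-0.47), nor was that of Solyc03g114360.3 in *sdg34* without replicate 2 of *sdg34* -N (-0.57). The glutathione S-transferase gene Solyc01g081250.3 rose by 4.02 in *sdg34* shoots (26, 89 and 20 against 2, 3 and 0), a call that was lost when any 1 of these 6 libraries was left out.

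Levels in mutant shoots were also compared with WT, averaged over both N conditions. In *sdg33*, 78 of the 135 genes (57.8%) were higher than in WT and 28 (20.7%) lower, against 32.9% and 28.2% of all genes. In *sdg34*, 73 (54.1%) were higher and 31 (23.0%) lower, against 29.3% and 25.2%. Since a gene can pass the filter on low values through the mutants alone, the same counts were taken over the 105 genes with at least 10 in every library. There, 57 (54.3%) were higher in *sdg33* and 53 (50.5%) in *sdg34*, against 35% and 31.1% of all genes that passed that filter. Lower were 26 (24.8%) and 28 (26.7%), against 30.1% and 27.2%. The median difference from WT was 0.61 in *sdg33* and 0.49 in *sdg34*, where all genes had 0.05 and 0.03. The rule favours genes that were high in mutant roots, and such genes may be high in mutant shoots too. The shoot shares were not compared with those of candidates as high in mutant roots, so nothing is read from the excess of higher genes.

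Root and shoot levels did not always differ from WT in the same direction. Of the 79 tested genes that were above WT in mutant roots under both conditions, 51 were higher and 14 lower in *sdg33* shoots, and 49 were higher and 16 lower in *sdg34* shoots. The whole set of 135 leaned the same way, with 78 (*sdg33*) and 73 (*sdg34*) higher. Background shares were 32.9% (*sdg33*) and 29.3% (*sdg34*) for higher levels, and 28.2% and 25.2% for lower ones. Another 38 tested genes were level with WT in roots under -N and above it under +N. Their shoot counts were 18 higher and 9 lower for *sdg33*, 17 and 9 for *sdg34*. A difference between root classes was not tested. The genes named next all have descriptions, which come from lists picked for a genotype difference in these same libraries. Their large differences from WT are thus not independent evidence. The glutaminase domain gene Solyc03g006490.3 was higher by 7.49 in *sdg33* and 6.73 in *sdg34* shoots, and the DnaJ gene Solyc04g081530.1 by 5.51 and 4.86. The zinc finger gene Solyc06g054540.3 was higher by 4.12 and 3.24. In these 3 genes the mutants were above WT in both organs. The PHD finger gene Solyc06g082040.2 went the other way, at 38 to 178 in WT shoots and at most 12 in any mutant shoot library, a difference of -4.12 and -3.62. In mutant shoots the TPR gene Solyc08g076730.3 differed from WT by -3.36 and -3.04, and the heat shock protein gene Solyc06g076570.3 by -3.23 and -3.18. The dehydration responsive element binding protein gene Solyc05g052410.2 had 212 to 480 in WT shoot libraries and 14 to 44 in mutant ones, without overlap.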

How the data were processed

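Per the labels and the study's methods, reads were trimmed, mapped to the tomato genome (BBmap) and summed over gene models and miRNA loci (featureCounts), and the authors ran DESeq2 on the counts. What was deposited is a score in the sense used here, since the authors brought the counts of the 36 libraries to 1 common distribution (full-quantile normalization) and rounded them. All 36 libraries hold the same sorted values, so depth is unknown, count models could not be used, and precision comes from the spread between replicates. The 2 tables were normalized together, so roots and shoots share 1 scale.

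The 150 genes were chosen from root values, and the genes and keyword lists were set with earlier results of these data known. Named genes are the 12 with the largest rule value, the neighbours of rank 150, the 4 most abundant in roots, the called shoot extremes and the described genes of each keyword family. Other described genes were added after their values were seen. Descriptions came from the study's supplementary lists. No sequences or coordinates could be matched to these gene models.

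For shoots, log2(value + 1) was fitted in limma 3.58.1 under R 4.3.3 (lmFit, eBayes with trend, 18 shoot libraries, 6 groups) for 21031 genes that reached 10 in 3 or more libraries. The Benjamini-Hochberg adjustment ran over all of these genes, with a threshold of 0.05. Fold changes of low values are understated on this scale. The steps were tested on simulated data. Alternatives were pseudocounts of 0.1 and 10, other filters, a median-of-ratios rescaling, fits of 12 libraries, a replicate block, each library left out in turn, and other limits in the rule. The test between the mutants was added after the data were examined.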

Additional observations from a re-analysis of the deposited data

Results flagged for a closer look

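In shoots, the N response differed from that of WT in 11 genes with a larger and 5 with a smaller response in *sdg33*, and in 7 with a larger and 11 with a smaller response in *sdg34*, by the limma interaction test (Benjamini-Hochberg adjusted p under 0.05). The direct test between the mutants gave 1 gene. The named genes are listed below with the difference of their N response in a mutant from that in WT, or between the mutants where that was called. Called genes that are not named in this report are left out of the list. The cause of none of these differences was tested.

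The nitrate reductase gene Solyc11g013810.2 differed from WT by 1.99 in *sdg33* and 2.20 in *sdg34*, the sigma factor gene Solyc03g007370.3 by 1.30 and 1.39, and Solyc07g063940.2 by 1.096 and 1.13. The maternal effect embryo arrest gene Solyc01g108910.3 differed by -1.84 and -2.59. None of these 8 calls was lost under the alternatives run.

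With a call against WT in *sdg33* and none in *sdg34*, the beta-amylase gene Solyc08g077530.3 differed from WT by 1.56, the kinase gene Solyc06g068450.2 by -1.09, Solyc01g087980.3 by 3.76 and the glutaminase domain gene Solyc03g006490.3 by 1.24. The last 2 calls are weak, having been lost under 18 of 23 and 19 of 25 alternatives, and the kinase call was lost under 7 of 25. The glutaminase domain gene also differed between the mutants, by -2.26.

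With a call against WT in *sdg34* and none in *sdg33*, the TPR gene Solyc08g076730.3 differed from WT by 1.62, Solyc04g076880.3 by 0.62, the trehalose-6-phosphate synthase gene Solyc07g006500.3 by -1.65, the DnaJ gene Solyc10g086570.3 by -1.25, Solyc02g081550.3 by -1.16 and the glucanase gene Solyc11g027840.2 by -0.93. The glucanase call was lost under 8 of 25 alternatives, that of Solyc04g076880.3 under 3 and that of Solyc02g081550.3 under 2. Of these 10 genes, 9 were not called in the direct test between the mutants, so a difference between the mutants is not shown for them (the glutaminase domain gene is the exception).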

How the results depend on the processing

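Of 182 called shoot results for named genes, 0 changed direction in 4541 alternatives and 198 alternatives ended a call. The count of genes with a larger N response than WT in *sdg33* shoots (11) was 7 with no filter on low values, 4 in a fit of 12 libraries and 5 to 13 with 1 library left out, and it was 4.98% with 300 genes in place of 150 (8.15%). Leaving out 1 library gave 3 to 10 for a smaller response in *sdg33* (10 without replicate 1 of WT -N), 4 to 11 and 7 to 22 for a larger and a smaller one in *sdg34* (22 without replicate 3 of WT -N), 6 to 12 for genes raised by N in *sdg34*, and 0 to 4 for genes lower in *sdg34* than in *sdg33*. That last count was 3 with a pseudocount of 10 and 7 in a fit of the 12 mutant libraries. With a replicate block it was 2, and the block moved no other count by over 1.5 times. The labels do not say that replicate numbers mark a shared batch, and the deviations of same-numbered libraries correlated at -0.14 to 0.26 in roots and -0.11 to 0.19 in shoots.

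The list itself depends on the rule. A WT limit of 0.25 or 1 kept 82 or 78 of the 150 genes, the other alternatives kept 109 to 146, and leaving out 1 root library kept 127 to 146. With a limit of 1 in place of 0.5 on the difference from WT, 56 genes were above WT under both conditions, 72 under +N only, 1 was below and then above, 8 were below under -N and level under +N, 0 were below under both and 13 passed no limit. Unknown depth leaves values near 0 without an error of their own.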
